A study of Macaca mulatta with 6 samples.

Results

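Collagens are the secreted and membrane proteins whose chains wind into triple helices, and this account describes their transcripts in rhesus monkey (Macaca mulatta) induced pluripotent stem cells (iPSCs). Members were all deposited gene rows whose symbol has the form COL, a number, A and a number, which gave 37 genes of 30246 rows. Of these, 30 had an FPKM (the fragment count of a gene, corrected for transcript length and library size) of 1 or more in at least 2 of the 6 libraries and were tested. The other 7, COL4A3, COL5A3, COL10A1, COL11A2, COL17A1, COL20A1 and COL21A1, stayed under that level. COL1A2, which encodes the second chain of type I collagen, is not analysed here.

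The study made iPSC lines from rhesus fibroblasts and sequenced the RNA of 2 female naive, 2 male naive and 2 male primed lines, 1 library each, all labelled as of embryonic stage. Naive lines, held in a state meant to resemble the early epiblast, grew in a medium labelled 6SM with 15% serum replacement and the growth factors LIF (10 ng/ml) and bFGF (4 ng/ml). That medium also held CHIR99021 at 3 µM to block GSK3, PD0325901 at 0.5 µM to block MEK, SP600125 at 10 µM to block JNK, and SB203580 at 10 µM to block p38. Primed lines grew in hESM, with 20% serum replacement and bFGF. Feeder cells were taken off before RNA was isolated, the primed group holds no female line, and the labels do not tie the lines to donors, so a p-value measures the spread between these lines only.

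Fibrillar collagens such as types I, II, III, V and XI build the striated fibrils of connective tissue and cartilage. Type IV forms the sheet of the basement membrane, type VI forms beaded filaments around cells, and the FACIT collagens sit on the surface of fibrils. Other classes anchor basement membranes (type VII), form hexagonal lattices (type VIII), span the plasma membrane (types XIII, XVII, XXIII and XXV) or carry sugar chains beside the basement membrane (the multiplexins XV and XVIII). Pluripotent cells lay down basement membrane, while type I and III collagens are best known as products of fibroblasts and other mesenchymal cells.

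Depth differed between groups. The FPKM bounds in the files imply 8294782 and 10013490 effective fragments in the female naive libraries, 1754857 and 1478692 in the male naive libraries, and 9970137 and 7607125 in the primed libraries. The collagen genes held 17775 and 26001, 3394 and 2315, and 15678 and 32861 of these, in the same order of groups. The pluripotency factor POU5F1 was present in every library, at 738 and 1160 FPKM in female naive, 536 and 571 FPKM in male naive and 135 and 109 FPKM in primed lines. SOX2 was at 85.3 FPKM or more in every library. Among the other pluripotency markers, NANOG with 0.933 and 2.09 FPKM and TDGF1 with 0 and 0.818 FPKM were low in primed lines. The rest of the list was not as low there. SALL4 had 98.8 and 48.0 FPKM, DNMT3B 33.4 and 41.9 FPKM, DPPA4 21.8 and 19.6 FPKM, and ZFP42 14.8 and 14.5 FPKM in primed lines. In every naive line NANOG was at 28.7 FPKM or more and TDGF1 at 11.9 FPKM or more. Over all 13685 tested rows, limma called 920 higher and 628 lower in naive than in primed lines at a Benjamini-Hochberg adjusted p under 0.05, a split that upper-quartile scaling turned to 693 higher and 878 lower.

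Collagen transcripts made up 0.0698% and 0.0874% of all FPKM in female naive lines, 0.0646% and 0.0567% in male naive lines, and 0.0627% and 0.129% in primed lines. Summed over the 37 genes this was 497 and 579 FPKM in female naive lines, 509 and 460 FPKM in male naive lines, and 418 and 898 FPKM in primed lines. Primed 1 had the lowest sum of the 6 libraries and primed 2 the highest, so the primed pair enclosed all 4 naive lines. The most abundant member was COL1A1 in both female naive lines, COL18A1 in both male naive lines and in primed 1, and COL4A2 in primed 2.

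The classes divided the libraries in different ways. Fibrillar genes summed to 144 and 213 FPKM in female naive, 123 and 106 FPKM in male naive, and 75.2 and 296 FPKM in primed lines. Type IV genes summed to 103 and 104 FPKM in female naive, 157 and 136 FPKM in male naive, and 147 and 230 FPKM in primed lines. The female naive lines were lowest for type IV, whereas primed 1 was lowest for the fibrillar class. Type VI genes reached 106 and 83.7 FPKM in female naive, 52.3 and 42.7 FPKM in male naive, and 39.9 and 168 FPKM in primed lines. FACIT genes reached 68.1 and 67.7 FPKM in female naive, 38.7 and 30.5 FPKM in male naive, and 42.4 and 53.8 FPKM in primed lines. Both female naive lines were thus above both male naive lines for these 2 classes. The 2 multiplexins summed to 60.0 and 91.7 FPKM in female naive, 120.1 and 129 FPKM in male naive, and 101 and 120.1 FPKM in primed lines, with the female naive lines lowest. Transmembrane collagens were scarce, with 4.19 and 4.10 FPKM in female naive, 2.62 and 6.31 FPKM in male naive, and 11.5 and 7.40 FPKM in primed lines. The primed sums were highest through COL13A1 alone, at 10.4 and 4.71 FPKM there. COL17A1 and COL25A1 were lower in both primed lines than in any naive line, and COL23A1 overlapped.

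**Figure D1:**
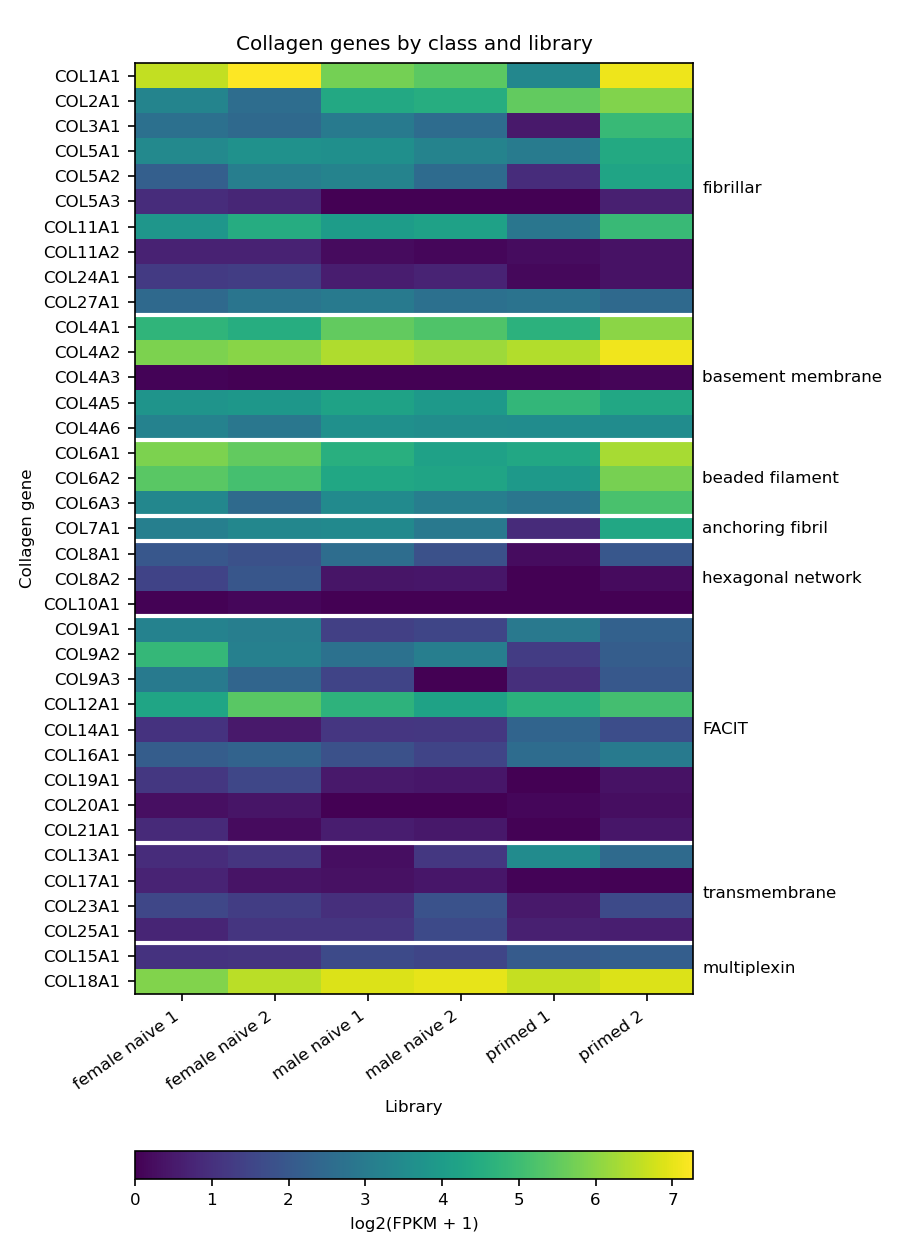
Level of each of the 37 collagen genes (down the page, by class) in each of the 6 libraries (across, female naive, male naive, primed), as colour on the log2(FPKM + 1) scale. COL1A1, COL4A2 and COL18A1 are bright in most libraries, and COL1A1, COL3A1, COL5A2 and COL7A1 are darker in primed 1 than in any other library.

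**Figure D2:**
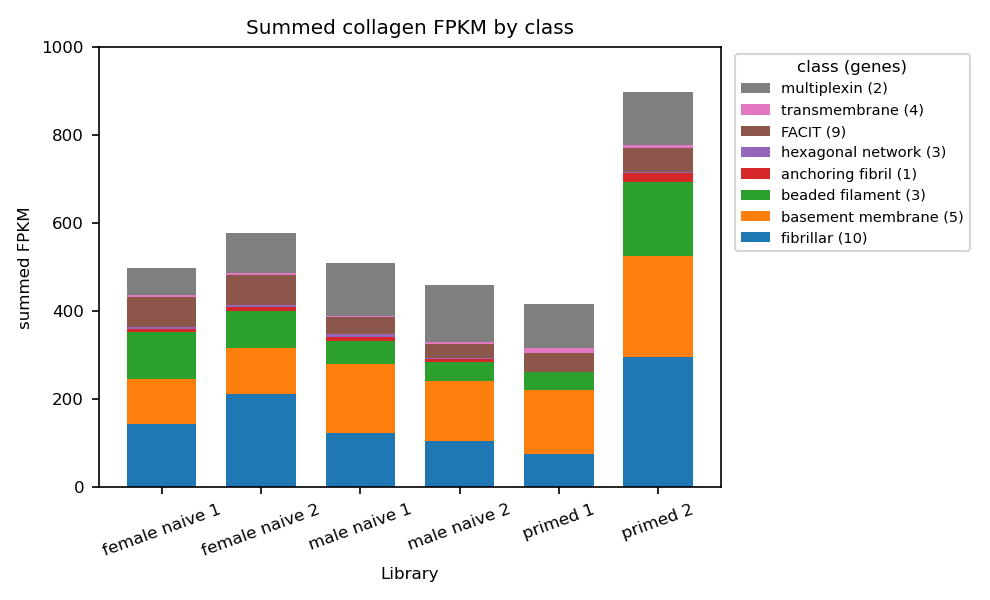
Summed FPKM of the collagen genes (vertical axis) in each library (horizontal axis, female naive, male naive, primed), stacked by class, with the number of genes per class in the legend. The bars end at 418 FPKM in primed 1 and 898 FPKM in primed 2, with the naive lines between, and the fibrillar part at the base is 75.2 FPKM in primed 1 and 296 FPKM in primed 2.

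The 2 primed lines differed from each other in their collagens more than the 2 lines of either naive group did. On the log2(FPKM + 1) scale, 13 of 30 tested collagen genes were at least 1 unit higher in primed 2 than in primed 1, against 5.01% of all tested rows, and 1, COL13A1, was at least 1 unit lower, against 2.16%. The median absolute difference between the primed lines was 0.78 log2 units over the collagen genes and 0.29 over all tested rows. The same medians were 0.32 and 0.23 between the female naive lines, and 0.32 and 0.18 between the male naive lines. Only COL12A1 was at least 1 unit higher in female naive 2 than in female naive 1 (1.62% of all rows) and only COL9A2 at least 1 unit lower (2.70%), and between the male naive lines COL9A3 alone passed that size, lower in male naive 2 (2.75%), with 0 higher (2.37%). These are descriptions of single pairs of libraries, with no test.

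COL3A1 had the highest ratio of primed 2 to primed 1, and other fibrillar genes and COL7A1 split the primed lines the same way. COL3A1, the type III chain of elastic tissues, had 5.42 and 4.64 FPKM in female naive, 7.001 and 4.96 FPKM in male naive, and 0.414 and 28.6 FPKM in primed lines, a ratio of 69.0 between primed 2 and primed 1. COL5A2, a type V chain that helps start type I fibrils, lies 17.3 kb from COL3A1 on chromosome 12 and had 3.62 and 7.56 FPKM in female naive, 8.60 and 4.79 FPKM in male naive, and 0.902 and 18.1 FPKM in primed lines, a ratio of 20.1. COL1A1, the main chain of type I, had 95.7 and 153 FPKM in female naive, 53.1 and 42.0 FPKM in male naive, and 9.24 and 135 FPKM in primed lines, a ratio of 14.7. For COL3A1 and COL5A2 primed 1 was the lowest library and primed 2 the highest, and for COL1A1 primed 2 lay between the 2 female naive lines. COL7A1, whose product forms the anchoring fibrils under epithelia, had 7.83 and 9.29 FPKM in female naive, 9.95 and 6.70 FPKM in male naive, and 0.841 and 19.5 FPKM in primed lines, a ratio of 23.2. The primed values of COL7A1 again enclosed all the naive ones.

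Smaller ratios held for the next fibrillar genes. COL11A1, a type XI chain found inside cartilage fibrils, had 13.0 and 21.7 FPKM in female naive, 15.3 and 16.9 FPKM in male naive, and 6.28 and 29.5 FPKM in primed lines. COL5A1, the partner of COL5A2 in type V, had 9.80 and 11.8 FPKM in female naive, 11.3 and 8.53 FPKM in male naive, and 7.09 and 20.2 FPKM in primed lines. In both genes the naive lines lay inside the primed range, and the ratio of primed 2 to primed 1 was 4.69 for COL11A1 and 2.85 for COL5A1. COL27A1, a fibrillar collagen of cartilage, did not split this way, with 4.55 and 6.05 FPKM in female naive, 6.92 and 5.39 FPKM in male naive, and 5.78 and 4.65 FPKM in primed lines.

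The 3 type VI members followed the same split. A row that only a gene name table calls COL6A5, a further type VI chain, reached at most 0.0662 FPKM, in primed 2. COL6A1 had 55.7 and 44.9 FPKM in female naive, 23.0 and 17.0 FPKM in male naive, and 19.4 and 78.0 FPKM in primed lines. COL6A2, 106 kb away from COL6A1 on chromosome 3, had 41.2 and 34.1 FPKM in female naive, 19.2 and 18.0 FPKM in male naive, and 14.4 and 54.2 FPKM in primed lines. COL6A3, the longest of the 3 chains, had 9.28 and 4.68 FPKM in female naive, 10.1 and 7.63 FPKM in male naive, and 6.19 and 35.6 FPKM in primed lines. Primed 2 was highest for all 3 chains, and both female naive lines were above both male naive lines for COL6A1 and COL6A2 but not for COL6A3. The COL6A1 to COL6A2 ratio of FPKM was 1.35 and 1.32 in female naive, 1.20 and 0.947 in male naive lines, and 1.35 and 1.44 in primed lines, so these 2 chains kept similar proportions while their levels differed 4.02-fold and 3.77-fold between the primed lines.

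**Figure D3:**
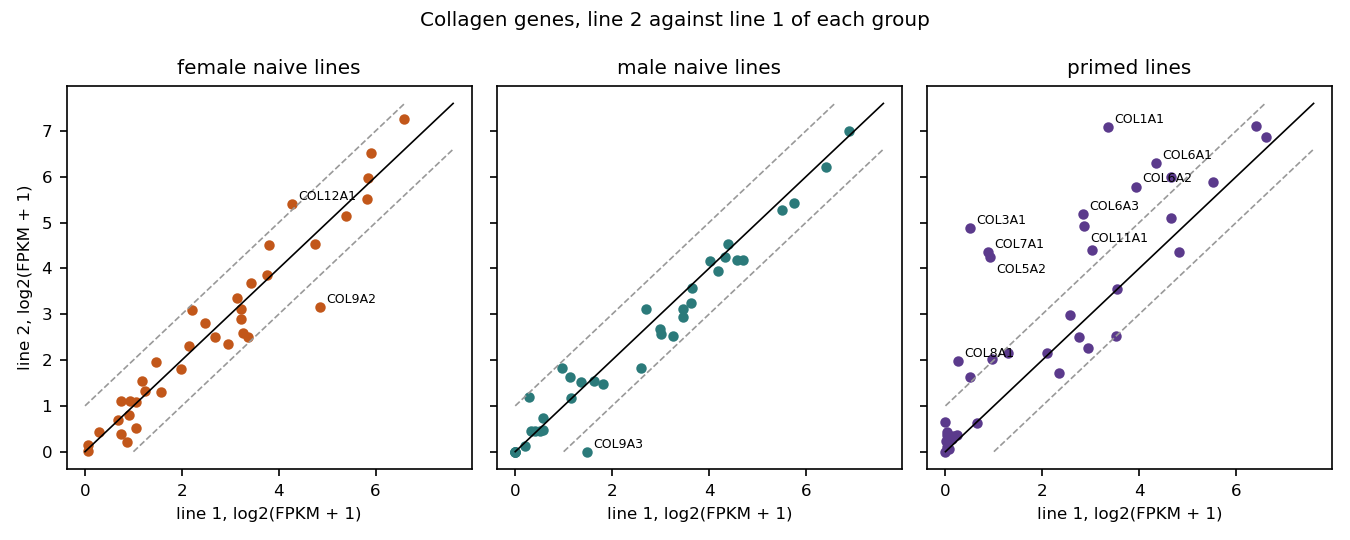
Line 2 (vertical axis) against line 1 (horizontal axis) of each group for the collagen genes, as log2(FPKM + 1), with female naive, male naive and primed panels from left to right, a solid line for equal levels and dashed lines 1 unit either side. In the primed panel COL3A1, COL7A1, COL5A2 and COL1A1 lie far above the solid line, with FPKM ratios of 14.7 to 69.0.

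Some fibroblast and feeder markers were also higher in primed 2 than in primed 1. Of 15 tested fibroblast and feeder markers, collagens not included, 6 were at least 1 log2 unit higher in primed 2 and 0 were lower by that size, against 5.01% and 2.16% of all tested rows. Smaller differences ran the other way in VIM, vimentin, with 642 FPKM in primed 1 and 501 FPKM in primed 2, and in the receptor gene PDGFRB, with 5.20 and 4.39 FPKM. The matrix protein genes LUM and POSTN had 0.111 and 19.9 FPKM (LUM) and 0 and 13.0 FPKM (POSTN) in primed 1 and primed 2. FN1, fibronectin, had 272 and 42.9 FPKM in female naive, 153 and 95.7 FPKM in male naive, and 39.3 and 354 FPKM in primed lines, with primed 1 lowest and primed 2 highest. The defining fibroblast marker PDGFRA was at 0.845 FPKM or less in every library, and DCN, a small proteoglycan, reached 3.11 FPKM in primed 2 and 0.489 FPKM in primed 1. Summed over the 18 markers with a row, the FPKM was 1605.5 and 2038 in female naive, 2508 and 2151 in male naive lines, and 1340.03 and 2016 in primed lines, and 0 to 3 of them were listed at 0 in a library. The part of these cells in the collagen values was not tested, and in bulk RNA more cells of a type and more RNA per cell cannot be told apart.

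Between naive and primed lines, COL2A1 and COL13A1 were lower in naive lines and no collagen gene was higher. These 2 lower calls and 0 higher calls of 30 stand beside 4.59% lower and 6.72% higher over all tested rows, and 11 of the 30 had an unadjusted p under 0.05, as did 4235 of all 13685 tested rows. The median log2 difference was -0.13 over the collagen genes and 0.03 over all tested rows.

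COL2A1, the chain of type II collagen in cartilage and the notochord (chromosome 11, 45045744 to 45076985, as the files give it with no genome build), had 8.61 and 5.005 FPKM in female naive, 19.9 and 22.3 FPKM in male naive, and 45.2 and 58.3 FPKM in primed lines. All 4 naive lines were below both primed lines, and both female naive lines were below both male naive lines. Its mean was 14.0 ± 8.43 FPKM in naive lines (SD, n = 4) and 51.8 ± 9.25 FPKM in primed lines (SD, n = 2), 3.71-fold lower in naive lines. The log2 difference was -2.02 (SE 0.23, adjusted p = 0.0102, limma), and over its alternatives the adjusted p ran between 0.00437 and 0.103. The call was lost without primed 1 (adjusted p = 0.0509), with no filter on low values (adjusted p = 0.0802) and with sex left out of the fit (adjusted p = 0.103). Among cartilage markers, the aggrecan gene ACAN was at 0.392 FPKM or less in every library and SOX9 lay between 1.25 and 3.02 FPKM.

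COL13A1, a transmembrane collagen of cell contacts and the neuromuscular junction (chromosome 9, 67050590 to 67186015, as deposited), had 0.900 and 1.16 FPKM in female naive, 0.216 and 1.28 FPKM in male naive, and 10.4 and 4.71 FPKM in primed lines. The groups did not overlap, and it was the only tested collagen gene at least 1 log2 unit higher in primed 1 than in primed 2. Its mean was 8.53-fold lower in naive lines, with a log2 difference of -2.14 (SE 0.39, adjusted p = 0.0264, limma), and the adjusted p ran between 0.0148 and 0.177 over its alternatives. The naive values rest on few effective fragments, 10.1 and 15.9 in female naive and 0.1 and 1.9 in male naive lines, against 147.4 and 49.7 in primed lines. Leaving out any single naive line or primed 1 ended the call, with log2 differences between -2.37 and -1.64. It was also lost with no filter (adjusted p = 0.177, limma), with sex left out of the fit (0.0519), with a replicate block (0.0551) and without both male naive libraries (0.0561).

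**Figure D4:**
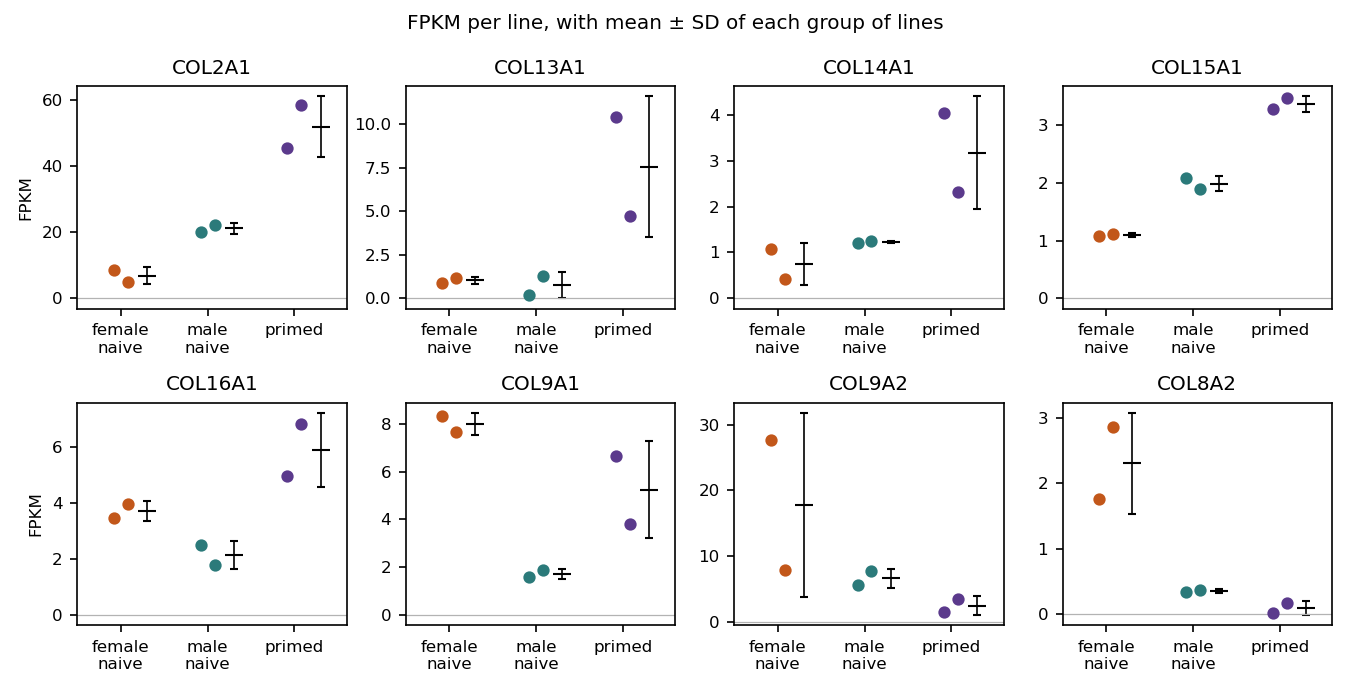
FPKM of 8 collagen genes in each line, 1 point per library, with female naive, male naive and primed lines from left to right in each panel and the mean ± SD of each group of 2 beside its points. COL2A1, COL13A1, COL14A1, COL15A1 and COL16A1 are higher in both primed lines than in any naive line, COL9A2 and COL8A2 are lower in both, and COL9A1 is lowest in the male naive lines.

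A further 10 tested collagen genes kept the naive and primed lines apart without passing the threshold. In total, all naive lines were below both primed lines for 7 of 30 genes, against 15.9% of all tested rows, and above both for 5 of 30, against 18.9%. Among the lower ones, COL16A1, a FACIT collagen, had 3.45 and 3.96 FPKM in female naive, 2.51 and 1.79 FPKM in male naive, and 4.96 and 6.85 FPKM in primed lines (log2 difference -0.83, SE 0.23, adjusted p = 0.0649, limma). COL14A1, another FACIT collagen, had 1.08 and 0.422 FPKM in female naive, 1.21 and 1.25 FPKM in male naive, and 4.04 and 2.31 FPKM in primed lines (log2 difference -1.06, SE 0.29, adjusted p = 0.0669, limma). COL15A1, a multiplexin, had 1.07 and 1.12 FPKM in female naive, 2.08 and 1.89 FPKM in male naive, and 3.27 and 3.46 FPKM in primed lines (log2 difference -0.80, SE 0.20, adjusted p = 0.0563, limma). In COL15A1 the 3 groups stood in the order female naive, male naive, primed with no overlap, as in COL2A1, whereas in COL16A1 the male naive lines were lowest. Among the higher ones, COL9A2, a chain of the cartilage FACIT type IX, had 27.8 and 7.92 FPKM in female naive, 5.53 and 7.65 FPKM in male naive, and 1.44 and 3.46 FPKM in primed lines (log2 difference 1.74, SE 0.50, adjusted p = 0.077, limma). The male naive values of COL9A2 rest on 1.4 and 1.8 effective fragments, so the 2 male naive lines carry little precision for it. COL8A2, a type VIII chain best known from the cornea, had 1.76 and 2.86 FPKM in female naive, 0.328 and 0.368 FPKM in male naive, and 0.0145 and 0.167 FPKM in primed lines, with 0.9 and 0.8 effective fragments in the male naive lines. The other 3 that were higher in all naive lines, COL19A1, COL24A1 and COL25A1, stayed between 0.370 and 2.11 FPKM in naive lines. COL8A2, COL19A1 and COL24A1 passed the filter on low values through the female naive lines alone, where they were highest. COL25A1 passed it through naive lines alone, with 0.560 and 0.537 FPKM in primed lines. The place of these genes among the 5 therefore supports nothing.

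The direction for COL1A1, COL3A1, COL7A1 and the type VI members turned on which primed line was used. Against primed 1 alone, naive lines were higher in COL1A1 (log2 difference 2.91, SE 0.29, adjusted p = 0.0186), COL3A1 (2.19, SE 0.28, adjusted p = 0.0246) and COL7A1 (2.35, SE 0.29, adjusted p = 0.0228). COL2A1 (-1.84, adjusted p = 0.0361) and COL13A1 (-2.64, adjusted p = 0.0361) were lower in that fit, in which 5.01% of all rows were called higher and 2.89% lower by limma. Against primed 2 alone, COL3A1 was lower in naive lines (-2.20, SE 0.25, adjusted p = 0.045), the single collagen call beside 0.373% of all rows called lower and 0.921% higher. COL3A1 thus turned its direction, and with both primed lines its log2 difference was -0.00 with an SE of 1.10 (adjusted p = 0.998). COL1A1 differed by -0.83 (adjusted p = 0.176) against primed 2 and by 1.04 (SE 0.94, adjusted p = 0.5) with both. COL7A1 differed by -1.13 (adjusted p = 0.094) against primed 2 and by 0.61 (SE 0.88, adjusted p = 0.68) with both. Against primed 2 the type VI chains were at -1.28 (COL6A1, adjusted p = 0.0633), -1.01 (COL6A2, adjusted p = 0.0578) and -2.08 (COL6A3, adjusted p = 0.0667), and against primed 1 at 0.68 (adjusted p = 0.131), 0.84 (adjusted p = 0.0533) and 0.27 (adjusted p = 0.675). In each of these fits the lone primed library was taken to vary like the other groups.

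**Figure D5:**
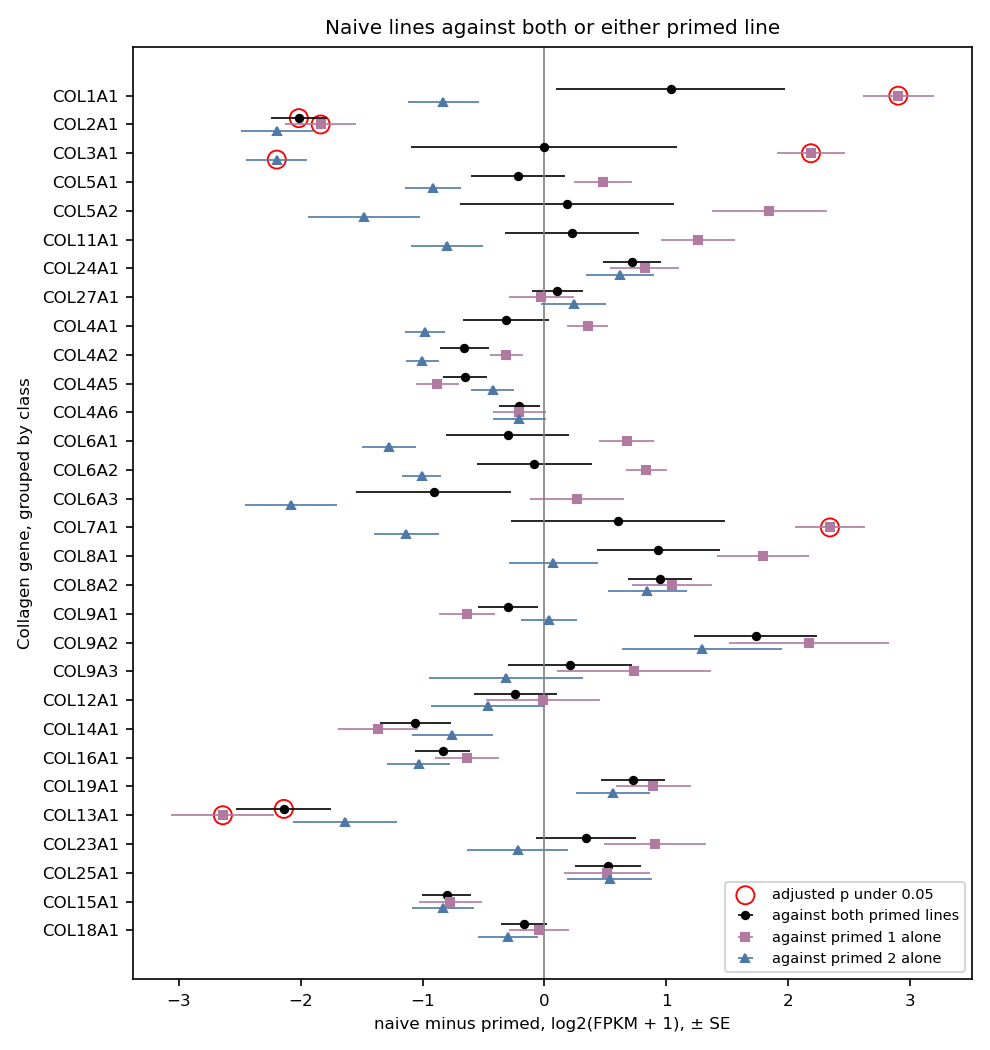
Log2 difference of naive minus primed lines for the 30 tested collagen genes (horizontal axis, log2(FPKM + 1), bars are ± SE) against both primed lines (black circles), primed 1 alone (squares) or primed 2 alone (triangles), with red rings at an adjusted p under 0.05. COL2A1 and COL13A1 stay below 0 in all 3 fits, while COL3A1 lies at 2.19 against primed 1 and at -2.20 against primed 2.

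Basement membrane collagens were among the most abundant members in every line. COL4A2 had 56.1 and 61.7 FPKM in female naive, 84.1 and 73.3 FPKM in male naive, and 84.7 and 137 FPKM in primed lines (log2 difference naive minus primed -0.66, SE 0.20, adjusted p = 0.0886, limma). Its partner COL4A1, 230.0 kb away on chromosome 17, had 25.8 and 22.2 FPKM in female naive, 44.6 and 37.8 FPKM in male naive, and 24.3 and 63.0 FPKM in primed lines. The naive lines were all below the primed lines for COL4A2, while for COL4A1 primed 1 lay among the female naive values. FPKM of COL4A1 relative to COL4A2 was 0.460 and 0.360 in female naive, 0.530 and 0.515 in male naive lines, and 0.287 and 0.460 in primed lines, so COL4A2 was the higher of the pair in every library although the assembled type IV trimer holds more of the COL4A1 chain. COL4A5, on the X chromosome, had 12.5 and 13.5 FPKM in female naive, 17.2 and 14.4 FPKM in male naive, and 27.1 and 19.5 FPKM in primed lines (log2 difference -0.65, SE 0.18, adjusted p = 0.0682, limma). COL4A6, 229 kb from COL4A5, had 8.37 and 6.41 FPKM in female naive, 11.6 and 10.9 FPKM in male naive, and 10.7 and 10.7 FPKM in primed lines (log2 difference -0.21, SE 0.17, adjusted p = 0.455, limma). COL4A5 kept the naive below the primed lines and COL4A6 did not, its female naive lines being lowest. COL4A3, a chain of kidney glomerular membranes, stayed under 0.1 FPKM in all lines.

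COL18A1, whose product carries heparan sulfate and yields endostatin, had the highest mean of the 37 genes. It had 58.9 and 90.6 FPKM in female naive, 118 and 127 FPKM in male naive, and 97.4 and 117 FPKM in primed lines, and both female naive lines were the lowest (female minus male naive, log2 difference -0.74, SE 0.22, adjusted p = 0.13, limma). The row with this symbol spans 2724 bp, and a longer neighbouring row of 25515 bp that only a gene name table calls COL18A1 had 14.7 and 19.7 FPKM in female naive, 21.6 and 19.5 FPKM in male naive, and 21.4 and 29.7 FPKM in primed lines. The rank of COL18A1 therefore rests on the short row, and in the longer row male naive 2 lay between the 2 female naive lines. A 2nd row of the same kind for COL4A5 was also lower in every naive line, with 8.28 and 9.12 FPKM in female naive, 12.3 and 12.8 FPKM in male naive, and 16.7 and 13.7 FPKM in primed lines (log2 difference -0.50, SE 0.16, adjusted p = 0.092, limma). A 2nd row for COL27A1 had 9.22 and 8.79 FPKM in female naive, 9.02 and 10.7 FPKM in male naive, and 7.57 and 7.69 FPKM in primed lines. There all naive lines were above both primed lines, unlike in the row used, but without a call (log2 difference 0.27, SE 0.16, adjusted p = 0.305, limma).

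The female and male naive lines shared a medium and differed in 2 collagen genes, COL9A1 and COL2A1. The 1 higher and 1 lower call of 30 stand beside 0.76% higher and 2.55% lower (3.31% in all) over all tested rows, and 7 of the 30 had an unadjusted p under 0.05, as did 2963 of all 13685 tested rows. COL9A1, a type IX chain (chromosome 4, 66578409 to 66666085, as deposited), had 8.34 and 7.66 FPKM in female naive, 1.57 and 1.86 FPKM in male naive, and 6.68 and 3.81 FPKM in primed lines. Its mean was 4.66-fold higher in female than in male naive lines (log2 difference 1.73, SE 0.28, adjusted p = 0.0359, limma), with the primed lines in between and the male naive values resting on 5.4 and 4.7 effective fragments. The call was lost without any 1 of the 4 naive lines, with log2 differences between 1.65 and 1.81. It was also lost with no filter (adjusted p = 0.168, limma) and with a replicate block (0.076). COL2A1, lower in female naive lines, had a log2 difference of -1.54 (SE 0.26, adjusted p = 0.0386, limma), and leaving out any single library ended that call (adjusted p between 0.0548 and 0.195). It was also lost under upper-quartile (0.0542), median-of-ratios (0.0512) and quantile (0.0527) scaling, without a trend (0.0554), with a replicate block (0.0832) and with no filter (0.196).

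The other type IX chain, COL9A3, had 6.76 and 4.13 FPKM in female naive, 1.80 and 0 FPKM in male naive, and 0.955 and 3.04 FPKM in primed lines. Both female naive lines were highest, and the female minus male log2 difference was 1.91 (SE 0.59, adjusted p = 0.14, limma), with male naive 2 listed at 0. COL6A1 (1.29, SE 0.59, adjusted p = 0.271) and COL6A2 (0.97, SE 0.54, adjusted p = 0.362) missed it in the fit of all 6 libraries. They passed without primed 1 (COL6A1 adjusted p = 0.0475, COL6A2 adjusted p = 0.0446) and without primed 2 (0.0474 and 0.047). COL12A1, a FACIT collagen of tendon and other dense tissue, had 18.4 and 41.2 FPKM in female naive, 25.2 and 17.2 FPKM in male naive, and 24.2 and 33.5 FPKM in primed lines, and its groups overlapped. Sex, line and sequencing depth cannot be told apart in this comparison, because both male naive libraries are the shallow ones.

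Within males, naive lines were lower than primed lines in COL13A1 alone (log2 difference -2.28, SE 0.45, adjusted p = 0.0438, limma), 1 lower and 0 higher calls of 30 beside 1.42% lower and 3.97% higher over all rows. COL2A1 had a log2 difference of -1.25 (SE 0.26, adjusted p = 0.051), COL16A1 of -1.13 (SE 0.26, adjusted p = 0.0622) and COL9A1 of -1.16 (SE 0.28, adjusted p = 0.0699) in the same limma fit. Each of these 3 genes was lower in both male naive lines than in both primed lines. The COL13A1 call was lost without any single naive line or primed 1, with log2 differences between -2.73 and -1.78. It was also lost with a pseudocount of 0.1 (adjusted p = 0.0691, limma), with a replicate block (0.0872) and with no filter (0.252).

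The remaining tested members were low in all lines. COL8A1, the partner chain of type VIII, had 2.93 and 2.50 FPKM in female naive, 5.01 and 2.52 FPKM in male naive, and 0.188 and 2.92 FPKM in primed lines, with primed 1 lowest. COL23A1, a transmembrane collagen, ranged between 0.423 and 2.55 FPKM. COL17A1, the collagen of hemidesmosomes, did not pass the filter and is given by value only, at 0.665 and 0.303 FPKM in female naive, 0.256 and 0.370 FPKM in male naive, and 0.0454 and 0.0387 FPKM in primed lines. COL10A1, of hypertrophic cartilage, did not exceed 0.0989 FPKM.

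Genes that make, cross-link, bind or degrade collagen were taken from 7 lists with 116 genes that had a row, of which 84 were tested. In naive lines 8 were higher and 3 lower than in primed lines (6.72% and 4.59% of all tested rows), with a median log2 difference of 0.16 against 0.03 over all tested rows. THBS1, thrombospondin, had 128 and 308 FPKM in female naive, 64.4 and 54.3 FPKM in male naive, and 9.50 and 14.1 FPKM in primed lines (log2 difference 3.12, adjusted p = 0.0102, limma). TNC, tenascin C, had 3.04 and 2.85 FPKM in female naive, 10.5 and 12.6 FPKM in male naive, and 24.8 and 28.9 FPKM in primed lines (log2 difference -1.99, adjusted p = 0.00612, limma), ordered over the groups as COL2A1 was. These were the only 2 calls among 15 tested fibril and matrix partners.

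Each single list stands beside the same shares of all tested rows, 6.72% higher and 4.59% lower. Turnover genes had 3 higher and 0 lower calls of 14. TIMP3, an inhibitor of matrix metalloproteinases, had 46.7 and 31.0 FPKM in female naive, 14.9 and 12.8 FPKM in male naive, and 3.14 and 6.52 FPKM in primed lines (log2 difference 2.11, adjusted p = 0.0139, limma). TIMP4, of the same family, had a log2 difference of 1.47 (adjusted p = 0.0271), and the collagenase MMP1 of 1.71 (adjusted p = 0.0354), with 12.2 and 5.30 FPKM in female naive, 0.387 and 0 FPKM in male naive lines, and listed at 0 in both primed lines. MMP1 passed the filter through the female naive lines alone, and its male naive minus male primed difference was 0.24 (adjusted p = 0.764, limma). Among 9 tested receptors the integrin chains ITGAV (1.18, adjusted p = 0.0333) and ITGB1 (1.00, adjusted p = 0.0478) were higher in naive lines. Of 6 cross-linking genes, the transglutaminase TGM2 was higher (1.29, adjusted p = 0.0339) and the lysyl oxidase family gene LOXL3 lower (-1.29, adjusted p = 0.0102), with 6.29 and 6.91 FPKM of LOXL3 in female naive, 9.04 and 9.05 FPKM in male naive, and 21.3 and 19.4 FPKM in primed lines.

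Of 20 folding and modification genes, FKBP14, a prolyl isomerase, was higher (0.83, adjusted p = 0.0486) and COLGALT1, the enzyme that adds galactose to collagen hydroxylysine, lower (-0.66, adjusted p = 0.0314). SERPINH1, the collagen chaperone HSP47, had 310 and 416 FPKM in female naive, 426 and 444 FPKM in male naive, and 373 and 398 FPKM in primed lines. It did not separate the primed lines, whereas the prolyl hydroxylase gene P4HA1 had 23.0 and 23.5 FPKM in female naive, 28.0 and 24.9 FPKM in male naive, and 14.7 and 68.2 FPKM in primed lines. PLOD2, a lysyl hydroxylase, had 7.50 and 3.80 FPKM in female naive, 4.71 and 3.11 FPKM in male naive, and 1.34 and 10.8 FPKM in primed lines. In P4HA1 and PLOD2, as in COL3A1, primed 1 was the lowest library and primed 2 the highest, and 17 of the 84 partner genes were at least 1 log2 unit higher in primed 2, with 1 lower, against 5.01% and 2.16% of all rows. The 9 export and processing genes and the 11 basement membrane partners held 0 calls each.

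Marker lists of cell types were set beside these values. Over all tested rows, 6.72% were called higher and 4.59% lower in naive than in primed lines. Of 8 pluripotency markers 6 were higher in naive lines, and of 15 tested fibroblast and feeder markers 1, VIM, was lower and 0 were higher, while 8 of the 18 with a row also stand in a partner list. Of the tested markers of other types, 1 of 3 for chondrocyte and neural crest, 1 of 3 for endothelium and 0 of 3 for trophoblast were higher in naive lines, and 0 of each were lower. The single calls were FOXD3 and KDR, which passed the filter on low values through naive lines alone. In the female minus male naive comparison 0 of the 15 fibroblast markers were higher and 2 lower, against 0.76% and 2.55% of all tested rows. The summed FPKM of chondrocyte and neural crest markers was 15.2 and 12.2 in female naive, 11.4 and 5.71 in male naive lines, and 2.04 and 6.57 in primed lines. Their part in the collagen results was not tested.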

How the data were processed

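RNA of 6 libraries was measured by Illumina sequencing, 2 in each of 3 groups read from the titles and the gender label. Per the submitters' processing notes, reads were aligned with TopHat 1.3.0. The sources used here name no genome build, annotation or quantifier, and coordinates are as deposited. The authors deposited FPKM per gene row, with bounds 2 SD either side, per the file headers. From these bounds, effective fragments were estimated as (2 × FPKM / (upper bound − FPKM)) squared. This covers the error stated within 1 library, not the spread between lines. That error is more than a matter of level and depth, as COL11A1 had 57.0 and 10.4 effective fragments in male naive 1 and 2, at 15.3 and 16.9 FPKM. An FPKM of 0 is given as listed at 0.

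The 13685 rows that reached 1 FPKM in 2 or more libraries, without a failed status, entered limma 3.58.1 in R 4.3.3, on log2(FPKM + 1) with a mean per group and a trend (3 residual degrees of freedom), two-sided, with Benjamini-Hochberg adjustment over all 13685 rows. The log2(FPKM + 1) scale understates the change of low genes. The fit was also run on data simulated with normal noise from its own estimates of spread. Such data cannot show how it behaves with unequal depth or few fragments. Where a symbol repeats, the row with the highest mean was to be used, and no member repeated.

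Members, classes, partner lists and markers were chosen with earlier results of these data known. Values in every library are given for members called in any comparison or with a group mean of 5 FPKM or more, and partner genes are named when called in naive against primed. The other genes given with values, COL8A1, COL8A2, COL10A1, COL14A1, COL15A1, COL17A1, COL19A1, COL23A1, COL24A1, COL25A1, SERPINH1, P4HA1, PLOD2, LUM, POSTN and FN1, and the markers DCN, PDGFRA, PDGFRB, VIM, ACAN, SOX9, POU5F1, SOX2, NANOG, TDGF1, SALL4, DNMT3B, DPPA4 and ZFP42, were chosen after their values were seen. Alternatives covered the pseudocount, filters, scaling, a replicate block, sex, the trend, summing of rows that share a symbol and leaving out libraries. The 2nd rows of COL18A1, COL4A5 and COL27A1, named only by a gene name table, were not merged in any of them. The result of 1 marker list is not reported here.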

Additional observations from a re-analysis of the deposited data

How the results depend on the processing

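Of 1154 recomputed single-gene results, 1092 kept their side of the threshold, 38 lost the call, 22 gained it and 2 reversed, both for COL3A1. Most of the 1154 were called in neither fit, so the 1092 says little about how firm the calls are. All 38 losses fell on the few calls of the main fits. In naive against primed COL3A1 was at 2.19 without primed 2 and -2.20 without primed 1. In male naive against male primed COL3A1 was at -2.10 without primed 1 and 2.29 without primed 2. Of the 1092, 57 changed sign with a call in neither fit. The cause was not tested in any case. Collagen calls in naive against primed (2) became 0 with no filter, 1 with FPKM of 5 or more, 6 with 20 or more effective fragments (1 higher, 5 lower), 4 with upper-quartile scaling, 0 with sex ignored, 5 with limma without a trend (2 higher, 3 lower), 1 without both male naive libraries, and 1 to 5 with 1 library left out. All-gene calls (1548) became 137 with no filter, 250 with sex ignored and 625 without both male naive libraries, and 177 to 1081 with 1 library left out. Partner calls (11) became 3, 1 and 7 there, and 2 to 14. In male naive against male primed, 738 calls became 86 with no filter and 51 to 626 with 1 library left out. The 1 collagen call became 0 with pseudocount 0.1 or no filter, 2 with pseudocount 5, upper-quartile, median-of-ratios or quantile scaling, 3 with 20 or more fragments, and 0 to 5, and 4 partner calls became 0 with no filter and 0 to 8. In female against male naive, 453 calls became 265 with no filter and 41 to 523, the 2 collagen calls 0 with no filter, 1 under each of the 3 scalings, and 0 to 3, and the 4 partner calls 2 with pseudocount 0.1 or no filter and 0 to 3. Scaling moved the median of all rows by up to -0.15 (male naive against male primed, upper-quartile) and 0.13 (female against male naive, median-of-ratios), and changed the split of higher and lower calls: 693 and 878 beside 920 and 628 in naive against primed (upper-quartile), 418 and 255, 399 and 294, and 391 and 357 beside 543 and 195 in male naive against male primed, and 114 and 219, 118 and 223 beside 104 and 349 in female against male naive (median-of-ratios, quantile and, for the males, upper-quartile). Summed collagen FPKM per library moved by less than the SD of its group with tested members only, and under upper-quartile or median-of-ratios scaling. With 2 lines per group that SD is a loose bound, as the primed sums of 418 and 898 FPKM show. Summing rows that share a symbol could not change the sums, because no member repeated. The 2nd rows that only a gene name table names were not added. Replicate numbers share only a number: deviations of same-numbered lines correlated at -0.06 (female and male naive), -0.05 (male naive and primed) and -0.26 (female naive and primed). With a replicate block, calls in the 3 comparisons were 812, 373 and 207 over all genes, 1, 0 and 0 over collagens and 6, 1 and 2 over partners. Few effective fragments in the male naive libraries limit genes such as COL8A2, COL9A2 and COL13A1, with under 2 in each. How much of this stems from the lower depth was not tested.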
